A study of Mus musculus with 40 samples.

Results

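Genes of cholesterol handling were examined in CD11b+ cells, the myeloid fraction that holds microglia, monocytes and macrophages, sorted from mouse brains with or without glioma. The 8 genes were taken by name from textbook target lists, 4 for the liver X receptors (LXR) and 4 for the sterol-regulated factor SREBP2, and all 8 were found among the 54513 named rows, of which 21826 matched protein-coding genes. They were chosen with earlier results of these data known, so they are not an independent sample of either target list. The LXR targets were Abca1 and Abcg1 (transporters that export cholesterol from the cell), Nr1h3 (the gene of LXRα itself) and Mylip (a ubiquitin ligase, also called IDOL, that limits lipoprotein uptake). The SREBP2 targets were Hmgcs1, Sqle and Idi1 (enzymes of cholesterol synthesis) and Insig1 (an endoplasmic reticulum protein that holds the SREBP escort SCAP in place when sterols are plentiful).

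SREBP2 is released from the membranes of the cell when sterols are scarce and switches on synthesis and uptake. LXR is activated by oxysterols, oxidised forms of cholesterol that build up when it is plentiful, and switches on export. The pair therefore form opposite arms of a homeostatic circuit, and in brain phagocytes both arms are drawn on when cells take up myelin, dying cells and lipid.

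The data came from 3 experiments in male mice aged 10 to 12 weeks. GL261 mouse glioma cells, carrying tdTomato and luciferase, were placed in the right striatum of C57BL/6 mice, and CD11b+ cells were collected at 21 days post implantation (DPI) after continuous intratumoral delivery of vehicle (water), 7aaRGD or 7aaRAE at 2 mg/ml from an osmotic pump, with naïve mice without tumor beside them (3 samples per group, each pooled from 2 animals). 7aaRGD is a short peptide with the integrin-binding motif RGD, and 7aaRAE carries RAE in place of that motif. At 28 DPI, cells from single mice with GL261 gliomas were compared after vehicle (4 samples), 7aaRGD (4), anti-PD-1 antibody at 10 mg/kg (3), or both treatments together (3, the combination, labelled RGD+Anti-PD-1+RGD), the groups without anti-PD-1 having received control IgG. The labels name nude mice for these 28 DPI samples, whereas the study's methods describe C57BL/6 mice. The study also says that immunodeficient mice did not allow a test of the combined treatment. As labels and study conflict, the strain is uncertain here, and the groups were taken from the treatment labels alone. U87-MG human glioma cells were implanted in athymic nude mice, which have almost no T cells, and collected at 21 DPI after vehicle, 7aaRGD or 7aaRAE (3 samples per group, each pooled from 2 animals). Values are RPKM, read counts scaled by transcript length and by library size, and group values are mean ± SD. The read depth behind them is unknown, and the 3 tables were normalized separately, so tests were run only within a table and levels set across tables are descriptions. In bulk RNA of this kind, fewer cells of a type and less RNA per cell cannot be told apart.

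The sort was checked with marker genes. Summed over 4 genes of CD11b+ cells (Itgam, Ptprc, Csf1r, Aif1), RPKM were 965.5 to 3368 in all 35 samples. Summed RPKM of 8 microglia markers were 15638 to 16190 in naïve mice and 1294 to 1882 in the 21 DPI vehicle group, and those of 7 monocyte and macrophage markers ran the opposite way, at 385.2 to 423.1 and 4698 to 5481. The U87-MG samples stood nearer to naïve mice, with 6498 to 10563 for microglia and 1241 to 3816 for monocytes and macrophages, while the 28 DPI samples gave 1533 to 3142 and 2091 to 7362. Sums were lower for 6 neutrophil (22.8 to 380.2), 9 oligodendrocyte lineage (25.6 to 67.3), 6 astrocyte (11.7 to 29.0), 8 T and NK cell (0.404 to 41.5), 5 endothelial (2.92 to 25.5) and 7 cell division markers (1.30 to 35.3). The T cell and NK cell genes Cd3e, Cd3d, Cd8a, Ncr1 and Klrb1c were under 0.1 RPKM in all naïve samples. Marker sums of single groups are given again beside the comparisons.

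Promoters of the members were read for the letters of known factor sites, to show the letters by which each arm of the circuit is known to be read. RefSeq start sites (GRCm38.p6) were at hand for 6 of the 8 genes, not for Sqle and Abcg1, and the 250 bases upstream were searched on both strands. The core TCACNCCA of the sterol response element, found in 3.67% of all 32851 upstream windows of this length, lay 137 bases before the start of Hmgcs1. The direct repeat that LXR reads with its partner RXR, searched as GGTNA followed after 5 free bases by GGTNA, was found in 0.621% of windows and lay on the opposite strand 67 bases before the start of Abca1. Both windows are shown 5′ to 3′ on the gene's strand, with the matched letters in capitals, and they lie at chr13:119690101-119690350 (plus strand) and chr4:53159896-53160145 (minus strand).
Hmgcs1: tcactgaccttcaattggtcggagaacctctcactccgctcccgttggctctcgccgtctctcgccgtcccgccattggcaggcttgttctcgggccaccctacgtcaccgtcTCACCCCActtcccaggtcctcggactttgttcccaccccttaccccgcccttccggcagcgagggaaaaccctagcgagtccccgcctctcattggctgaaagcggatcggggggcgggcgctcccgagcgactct
Abca1: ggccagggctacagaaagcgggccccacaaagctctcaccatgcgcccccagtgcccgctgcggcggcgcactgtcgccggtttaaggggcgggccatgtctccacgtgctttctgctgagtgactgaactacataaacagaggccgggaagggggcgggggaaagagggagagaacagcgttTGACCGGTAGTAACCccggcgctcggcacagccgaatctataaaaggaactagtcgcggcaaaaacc
The 3 SREBP2 targets with a start site (Hmgcs1, Idi1, Insig1) each held CCAAT, the letters read by the SREBP partner NF-Y, and GGGCGG, the letters read by Sp1, against 33.8% and 32.7% of all windows. Of the 3 LXR targets with a start site, Mylip held CCAAT, and Abca1 and Mylip held GGGCGG. No further member window held either of the longer sites. These letters are a description of the windows and not of binding.

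The first comparison asked how CD11b+ cells of a glioma-bearing hemisphere differ from those of a naïve brain. Vehicle mice also had surgery, a catheter and a pump delivering water, which naïve mice are not described as having. Tumor and these procedures cannot be told apart here. The LXR targets did not move together: Nr1h3 rose from almost nothing, Abca1 and Mylip fell, and Abcg1 did not pass the test. All 3 SREBP2 targets that passed the filter on low values (a mean of at least 1 RPKM) rose.

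Nr1h3 (chr2:91184061-91202834, minus strand; here and below mm10 with GENCODE M21) stood at 0.306, 0.533 and 0.493 RPKM in the naïve samples and at 24.1, 23.7 and 32.2 RPKM in the vehicle samples. The groups did not overlap, and the log2 fold change of RPKM + 1 was 4.25 (SE 0.12, adjusted p = 3.51e-08; here and below, limma with Benjamini-Hochberg adjustment over all genes tested). Nr1h3 passed the filter through its vehicle level alone, and a noncoding transcript, Gm13783, is annotated over it on the same strand. Its sister receptor Nr1h2 (LXRβ) was present in both groups, at 20.9 ± 0.229 RPKM in naïve and 30.3 ± 2.29 RPKM in vehicle mice (log2 fold change 0.51, SE 0.06).

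Abca1 (chr4:53030787-53159895, minus strand) was 104, 112 and 109 RPKM in naïve samples and 45.6, 34.5 and 43.7 RPKM in vehicle samples. It fell by 1.38 on the log2 scale (SE 0.10, adjusted p = 4.29e-06). Mylip (chr13:45389742-45412022, plus strand) fell further, from 137, 154 and 153 RPKM to 24.5, 18.9 and 25.9 RPKM (log2 fold change -2.64, SE 0.11, adjusted p = 2.16e-07). For both genes every naïve sample lay above every vehicle sample. Abcg1 (chr17:31057675-31117988, plus strand), the second exporter, held 50.8, 46.9 and 42.1 RPKM in naïve and 43.8, 41.7 and 49.5 RPKM in vehicle samples. The groups overlapped, with a log2 fold change of -0.05 and a 95% interval of -0.25 to 0.16; the sign turned to 0.11 with TMM factors and to 0.12 with median-of-ratios factors, neither past the test.

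Among SREBP2 targets, Insig1 (chr5:28071363-28078662, plus strand) held 4.26, 4.26 and 4.36 RPKM in naïve samples and 15.9, 19.6 and 15.7 RPKM in vehicle samples (log2 fold change 1.76, SE 0.09, adjusted p = 4.03e-07). Sqle (chr15:59315077-59331192, plus strand), squalene epoxidase, rose from 0.622, 0.420 and 0.426 RPKM to 3.56, 4.02 and 2.54 RPKM (log2 fold change 1.54, SE 0.13, adjusted p = 9.71e-06). It passed the filter through its vehicle level alone. Hmgcs1 (chr13:119690379-119708260, plus strand), which makes HMG-CoA, rose least, from 7.68, 8.17 and 8.22 RPKM to 12.4, 12.5 and 9.85 RPKM (log2 fold change 0.47, SE 0.09, adjusted p = 0.00138). No SREBP2 target overlapped between the groups. Idi1 (chr13:8885501-8892451, plus strand), isopentenyl diphosphate isomerase, averaged under 1 RPKM over the samples and was not in the test; its values were 0.325, 0.402 and 0.422 RPKM in naïve and 1.62, 1.69 and 1.41 RPKM in vehicle samples. Without the filter, its log2 fold change was 0.90 (SE 0.06, adjusted p = 5.36e-05), beside 4375 of 16716 genes called higher and 5564 lower.

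These 6 calls stand against a background in which 82.9% of 9722 genes passed the test, 34.6% higher and 48.2% lower, so the calls as such do not set the members apart. Groups did not overlap for 85.4% of genes. The median log2 fold change was -0.14 over all genes and -0.71 over the 4 LXR targets. Without the filter, which had kept Sqle and left out Idi1, the median was 1.22 over the 4 SREBP2 targets and -0.01 over all genes. TMM and median-of-ratios factors moved the median of all genes to -0.00 and 0.01. The 6 called members stayed called, and Idi1 then passed the filter and was called too (log2 fold change 0.97 with either), which made 7. The fall of microglia markers and the rise of monocyte and macrophage markers given above run along the same groups. The sum of the CD11b+ sort genes also fell, from between 3293 and 3368 RPKM to between 1033 and 1138 RPKM. Of these 4 genes 2 were called higher and 2 lower, with a median log2 fold change of -0.28. T and NK cell (0.404 to 1.17 against 5.40 to 14.7 RPKM), endothelial (2.92 to 3.16 against 14.7 to 25.5 RPKM) and cell division sums (1.30 to 2.29 against 9.36 to 16.1 RPKM) were higher in vehicle samples. The part of these markers in the values of the members was not tested.

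**Figure D1:**
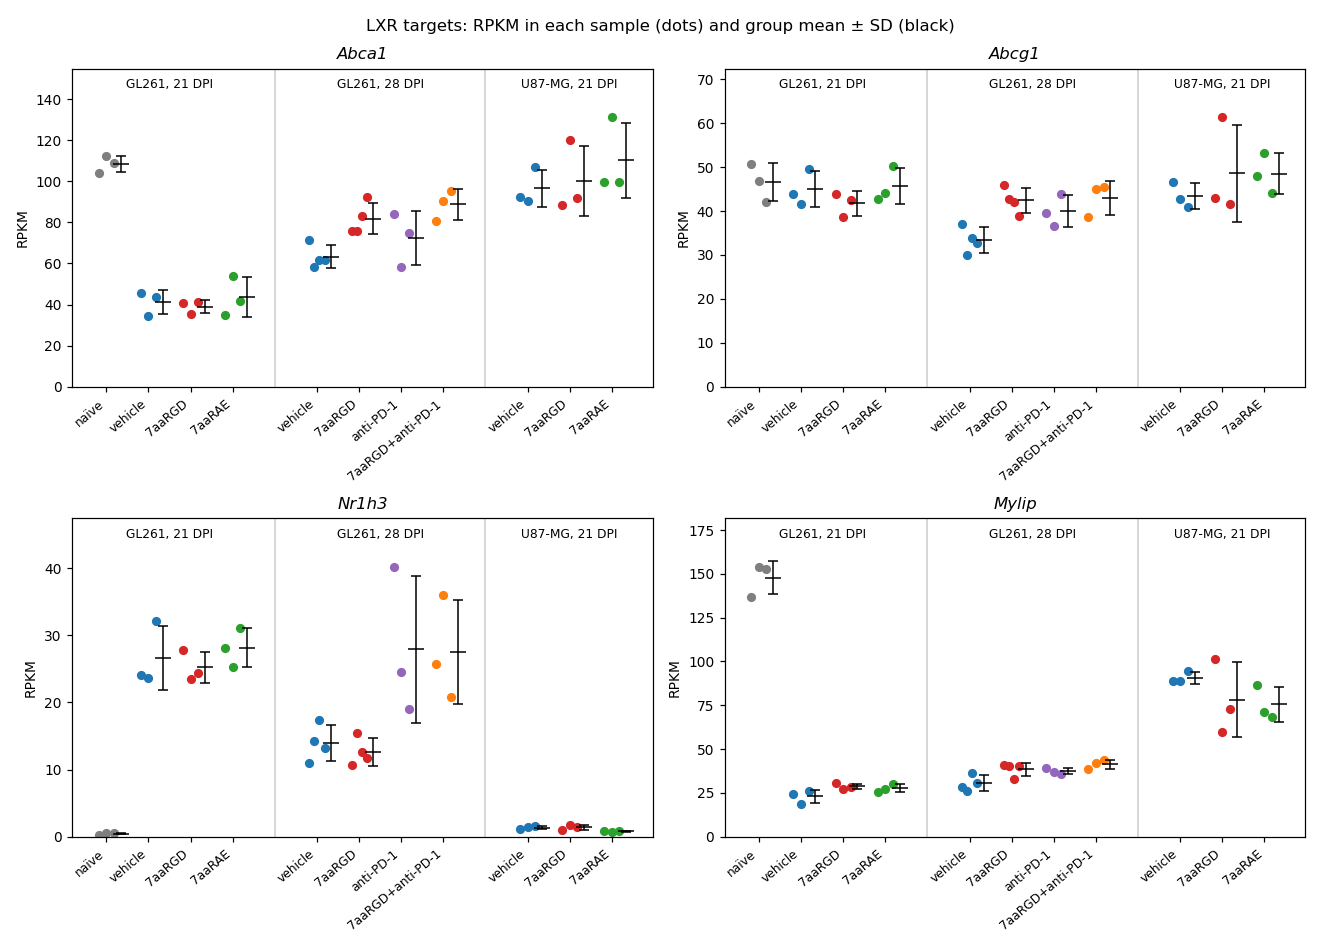
RPKM of the 4 LXR targets (vertical axes, linear from 0) in each sample (dots) with the group mean ± SD (black), for the 3 separately normalized tables. Nr1h3 lies under 2 RPKM in naïve and U87-MG samples and at 10.7 RPKM or more in all GL261 samples, while Mylip runs the opposite way, from 137 RPKM or more in naïve mice to 43.7 RPKM or less in GL261 samples.

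The other genes of the pathway were taken from lists. Of 17 further sterol synthesis enzymes, 16 were tested, and in vehicle against naïve samples 11 rose and 1 fell. Among the larger rises were those of Pmvk (log2 fold change 2.27, SE 0.15), Mvd (1.46, SE 0.13) and Cyp51 (1.22, SE 0.08). Acat2, an enzyme at the entry to the pathway and the single member of the list that fell (named after its value was seen), fell by 0.37 (SE 0.13). The median over the 16 was 0.65. Over all 9722 genes tested, 34.6% were called higher and 48.2% lower.

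Of 7 genes of sterol uptake and SREBP control tested, 3 rose and 4 fell, and not all are named here. Of all genes, 82.9% were called in this comparison. Among those that rose, Srebf2, the gene of SREBP2, rose by 1.28 (SE 0.06). Stard4, a cytosolic sterol carrier, rose by 1.03 (SE 0.08). Those that fell included Insig2 (log2 fold change -1.03), Scap (-0.98) and Mbtps2 (-0.97), which retain, escort and cleave SREBP.

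Of 10 further LXR targets tested, 5 rose and 4 fell. Beside the counts in this paragraph, 34.6% of all genes were called higher and 48.2% lower. Pltp (log2 fold change 2.83), Apoe (2.52), Smpdl3a (2.35) and Apoc1 (1.88) rose most, and these encode lipid transfer and carrier proteins and a secreted phosphodiesterase. Apoe, the main lipid carrier of the brain, went from 545.7 ± 78.1 to 3279 ± 1302 RPKM. Mertk (-2.24), a receptor for dying cells, and Lpcat3 (-2.14), which remodels phospholipids, fell. Among nuclear receptors and oxysterol enzymes, 2 of 7 rose and 4 fell, led by Ch25h, which makes 25-hydroxycholesterol (2.12, SE 0.32), and by the LXR partners Rxra (-0.76) and Rxrb (-0.65). Among 8 genes of sterol storage and lysosomal release, 4 rose and 4 fell, led by the lipid droplet coat gene Plin2 (2.68) and the cholesteryl ester hydrolase gene Nceh1 (2.03), with the lysosomal exporter pair split between Npc2 (1.79) and Npc1 (-0.91).

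**Figure D2:**
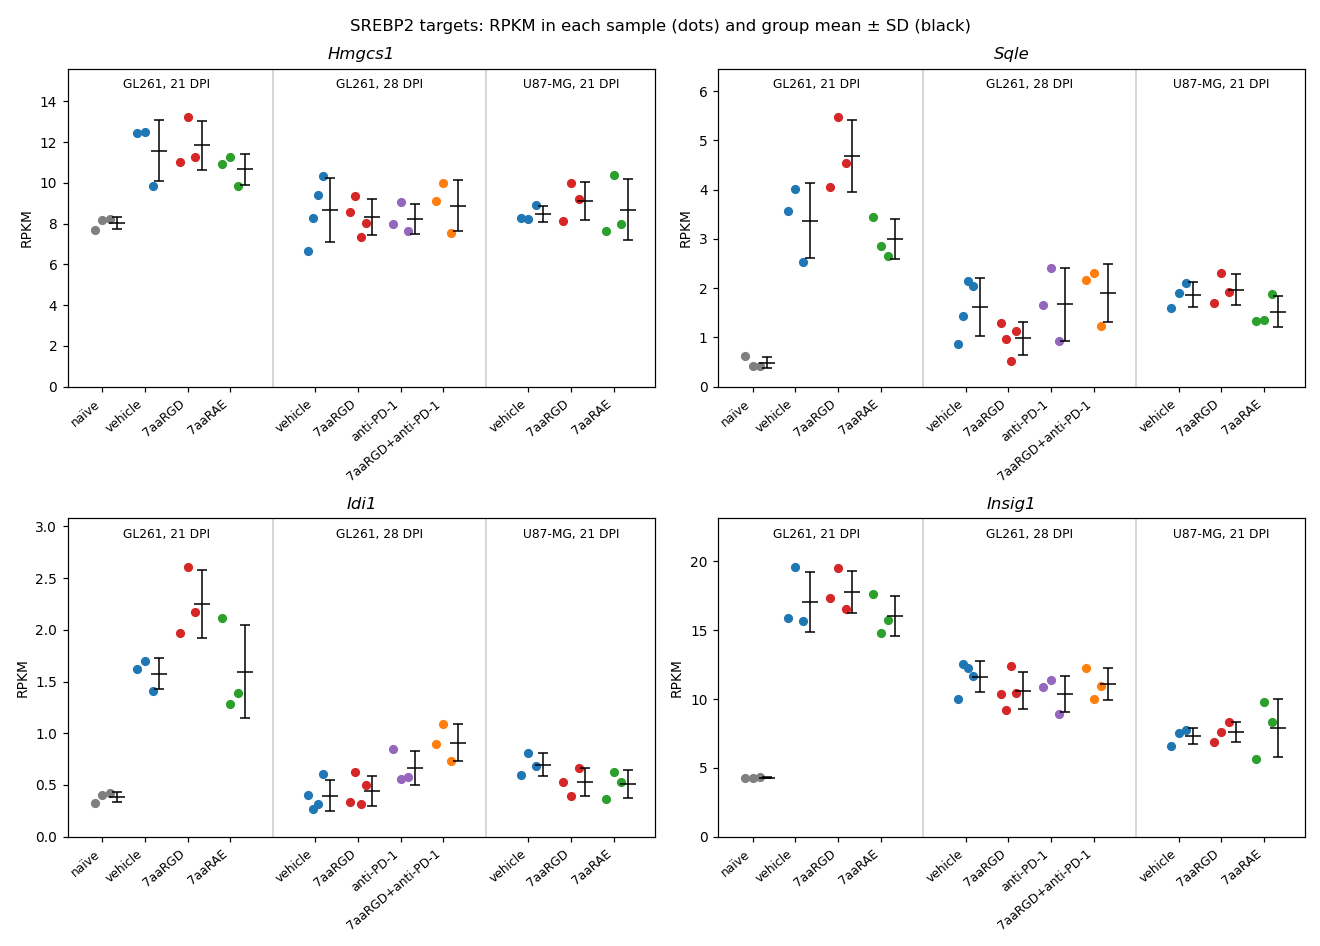
RPKM of the 4 SREBP2 targets (vertical axes, linear from 0) in each sample (dots) with the group mean ± SD (black), for the 3 separately normalized tables. At 21 DPI the GL261 samples lie above the naïve samples for all 4 genes, and Sqle and Idi1 are highest in the 7aaRGD group on average.

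The second comparison asked whether 7aaRGD shifted these genes at 21 DPI, with 7aaRAE as the control peptide; both peptide comparisons share the same vehicle samples. No member passed the test against vehicle, where 0.148% of 9436 genes did for 7aaRGD and 0% for 7aaRAE, nor between the peptides, where again 0% did. At an unadjusted p under 0.05 limma gave 1278 genes for 7aaRGD, 600 for 7aaRAE and 520 between the peptides, and 3, 1 and 2 members.

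The largest values belonged to low SREBP2 targets. Sqle was 3.56, 4.02 and 2.54 RPKM after vehicle, 4.05, 5.47 and 4.54 RPKM after 7aaRGD, and 3.45, 2.87 and 2.66 RPKM after 7aaRAE. Every 7aaRGD sample lay above all samples of the other groups. The log2 fold change was 0.39 (SE 0.14, adjusted p = 0.291) against vehicle and 0.51 (SE 0.14, adjusted p = 0.778) against 7aaRAE. Idi1 was 1.62, 1.69 and 1.41 RPKM after vehicle, 1.97, 2.61 and 2.2 RPKM after 7aaRGD, and 2.11, 1.28 and 1.39 RPKM after 7aaRAE. The 7aaRGD samples lay above vehicle without overlap but overlapped 7aaRAE, with log2 fold changes of 0.33 (SE 0.12, adjusted p = 0.294) and 0.33 (SE 0.12, adjusted p = 0.794). Both are low genes, at the level where the log2(RPKM + 1) scale understates a change.

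Hmgcs1 and Insig1, the more abundant SREBP2 targets, gave log2 fold changes of 0.03 and 0.06 for 7aaRGD against vehicle, with 95% intervals of -0.20 to 0.26 and -0.16 to 0.29. Mylip was the 1 LXR target with an unadjusted p under 0.05. It went from 24.5, 18.9 and 25.9 RPKM after vehicle to 30.4, 27.5 and 28.5 RPKM after 7aaRGD and 25.6, 27.1 and 30.3 RPKM after 7aaRAE (log2 fold changes 0.32 and 0.26, SE 0.11 each, adjusted p = 0.287 and 0.718). The 7aaRGD samples did not overlap vehicle, the 7aaRAE samples did, and the peptides differed by 0.06 with a 95% interval of -0.19 to 0.31. Abca1, Abcg1 and Nr1h3 differed between 7aaRGD and vehicle by -0.07, -0.10 and -0.07 on the log2 scale. Groups that do not overlap were common here: 12.5% of genes were higher in every 7aaRGD sample than in every vehicle sample, and 7.82% than in every 7aaRAE sample.

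The 2 peptides, which differ in the motif RGD or RAE and were given at the same dose and time, were thus compared for the 8 members in 1 pair at 21 DPI in GL261 tumors, with p-values adjusted over all 9436 genes. The 95% intervals of the peptide difference lay between -0.49 and 0.82 on the log2 scale, so that members could not be called alike to better than that range. For the 16 further synthesis enzymes, all 16 had a positive log2 fold change of 7aaRGD over 7aaRAE, as did 5488 of the 9436 genes. Their median was 0.20 beside 0.02 over all genes, and none passed the test. Against vehicle, 10 of the 16 were positive after 7aaRGD, with a median of 0.08, beside 5443 of the 9436 genes. After 7aaRAE 1 of the 16 was positive, with a median of -0.11, beside 4903 of the 9436 genes. The difference between the peptides thus held values on both sides of vehicle. Srebf2 gave 0.23 (SE 0.10) for 7aaRGD against vehicle. Summed microglia markers were 1945 to 2585 RPKM after 7aaRGD, 1294 to 1882 RPKM after vehicle and 1687 to 2127 RPKM after 7aaRAE, and oligodendrocyte lineage markers were 61.8 to 67.3, 48.9 to 56.6 and 49.5 to 57.6 RPKM. Both sums were thus higher after 7aaRGD than after vehicle without overlap. T and NK cell markers were 13.7 to 34.5, 5.40 to 14.7 and 5.65 to 19.6 RPKM in the same order, with all 4 tested markers positive for 7aaRGD against vehicle (median log2 fold change 0.67) and none past the test. The part of these markers in the values of the members was not tested.

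The third comparison, at 28 DPI, asked how 7aaRGD, anti-PD-1 and their combination altered the same genes; all 3 treatments were set against the same 4 vehicle samples. After the combination all 4 LXR targets rose, and none of the 3 SREBP2 targets that passed the filter did. The background was 43.3% of 9732 genes called, 17.5% of them higher and 25.8% lower, and 20% of genes were higher without overlap. With TMM factors the calls split into 2165 higher and 2118 lower, in place of 1706 and 2508, and the 4 LXR targets were called under each alternative run.

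Abca1 held 71.3, 58.4, 61.7 and 61.7 RPKM after vehicle and 80.5, 90.3 and 95.5 RPKM after the combination. Every combination sample lay above every vehicle sample, and the log2 fold change was 0.48 (SE 0.12, adjusted p = 0.00501). Abcg1 went from 37.0, 30.0, 33.9 and 32.8 RPKM to 38.5, 45.1 and 45.4 RPKM (log2 fold change 0.36, SE 0.09, adjusted p = 0.0064). Its lowest combination sample lay just above its highest vehicle sample. Mylip went from 28.5, 25.8, 36.6 and 30.8 RPKM to 38.6, 41.8 and 43.7 RPKM, again without overlap (log2 fold change 0.44, SE 0.11, adjusted p = 0.00489). Nr1h3 had the largest change, from 10.9, 14.2, 17.5 and 13.2 RPKM to 25.7, 36.0 and 20.8 RPKM (log2 fold change 0.91, SE 0.23, adjusted p = 0.00646). The spread among the combination samples of Nr1h3, with an SD of 7.78 RPKM, was wider than among the vehicle samples, with an SD of 2.71 RPKM.

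The SREBP2 targets at 28 DPI were described by intervals. Hmgcs1 gave 0.04 on the log2 scale (95% interval -0.24 to 0.31), Insig1 -0.06 (-0.30 to 0.17) and Sqle 0.16 (-0.33 to 0.64) for the combination against vehicle. Idi1 lay under the filter, at 0.400, 0.264, 0.313 and 0.601 RPKM after vehicle and 0.900, 1.09 and 0.730 RPKM after the combination. Its groups did not overlap, and without the filter its log2 fold change was 0.45 (SE 0.10, adjusted p = 0.00597), so that 1 of 4 SREBP2 targets was higher when low genes were kept. In that run 1992 of 16940 genes were called higher and 2856 lower.

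After anti-PD-1 alone 1 member was called, against 23.1% of genes. Nr1h3 was 40.2, 24.5 and 19.0 RPKM, above all vehicle samples as for 15.4% of genes (log2 fold change 0.90, SE 0.23, adjusted p = 0.014). The call rested on the first of these samples: without anti-PD-1 replicate 1 the log2 fold change was 0.61 and the adjusted p 0.0629, within a range of 0.00649 to 0.0629 over the alternatives. Mylip (0.30, SE 0.11, adjusted p = 0.0558) and Abcg1 (0.25, SE 0.09, adjusted p = 0.0576) missed the threshold. Mylip was called with TMM (0.31) and median-of-ratios factors (0.31) and without vehicle replicate 3 (0.39, adjusted p = 0.0113), and its adjusted p ranged from 0.0113 to 0.155. Abcg1 was called without vehicle replicate 1 (0.30, adjusted p = 0.0415), within a range of 0.0415 to 0.203. Abca1 was 84.2, 58.2 and 75 RPKM and overlapped the vehicle samples (0.18, SE 0.12, adjusted p = 0.286).

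After 7aaRGD alone no member was called, where 0.647% of genes were, a count of 63 that fell to between 0 and 1 when any one 7aaRGD or vehicle library was left out. At an unadjusted p under 0.05 limma gave 1421 genes and 3 members, all LXR targets: Abcg1 (log2 fold change 0.34, SE 0.08, adjusted p = 0.0982), Abca1 (0.37, SE 0.11, adjusted p = 0.144) and Mylip (0.34, SE 0.10, adjusted p = 0.141). Abca1 was 76.0, 76.0, 83.2 and 92.2 RPKM, and Abcg1 was 46.0, 42.8, 42.0 and 38.8 RPKM, in both cases above every vehicle sample, as for 3.97% of genes. Nr1h3, at 10.7, 15.4, 12.6 and 11.8 RPKM, lay among the vehicle values (-0.13, 95% interval -0.59 to 0.33). Sqle was lower on average, at 0.980 ± 0.338 RPKM against 1.62 ± 0.595 RPKM (-0.39, SE 0.21, adjusted p = 0.403), with overlapping groups.

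Between treatments, the combination differed from 7aaRGD alone in Nr1h3 (log2 fold change 1.04, SE 0.23, adjusted p = 0.00389), the single member called beside 36.6% of genes. There every combination sample was above every 7aaRGD sample, as for 14.5% of genes. With TMM factors the calls over all genes split into 1670 higher and 1663 lower, in place of 1268 and 2292. Sqle gave 0.55 (SE 0.23, adjusted p = 0.0734) in the same comparison. It was called with median-of-ratios factors, with only the groups compared, and without combination replicate 3 (0.73, adjusted p = 0.0416), within a range of 0.0416 to 0.213. Idi1, without the filter, gave 0.40 (SE 0.10, adjusted p = 0.0149) and did not overlap, beside 1472 of 16940 genes called higher and 2345 lower in that run.

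No member was called between the combination and anti-PD-1, where 0.0411% of genes were. Abca1 was the 1 member with an unadjusted limma p under 0.05 (0.30, SE 0.13, adjusted p = 0.28), among 1459 genes. Its 95% interval was 0.03 to 0.57, and that of Nr1h3 was -0.52 to 0.54. The test of the interaction, whether the effect of the combination departs from the sum of both single treatments on the log2 scale, called no gene (0%), with 794 genes and no member at an unadjusted p under 0.05. Its intervals were -0.42 to 0.29 for Abca1, -0.51 to 0.04 for Abcg1, -0.57 to 0.85 for Nr1h3 and -0.52 to 0.13 for Mylip. These intervals cover 0 and are wide beside the fold changes themselves.

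**Figure D3:**
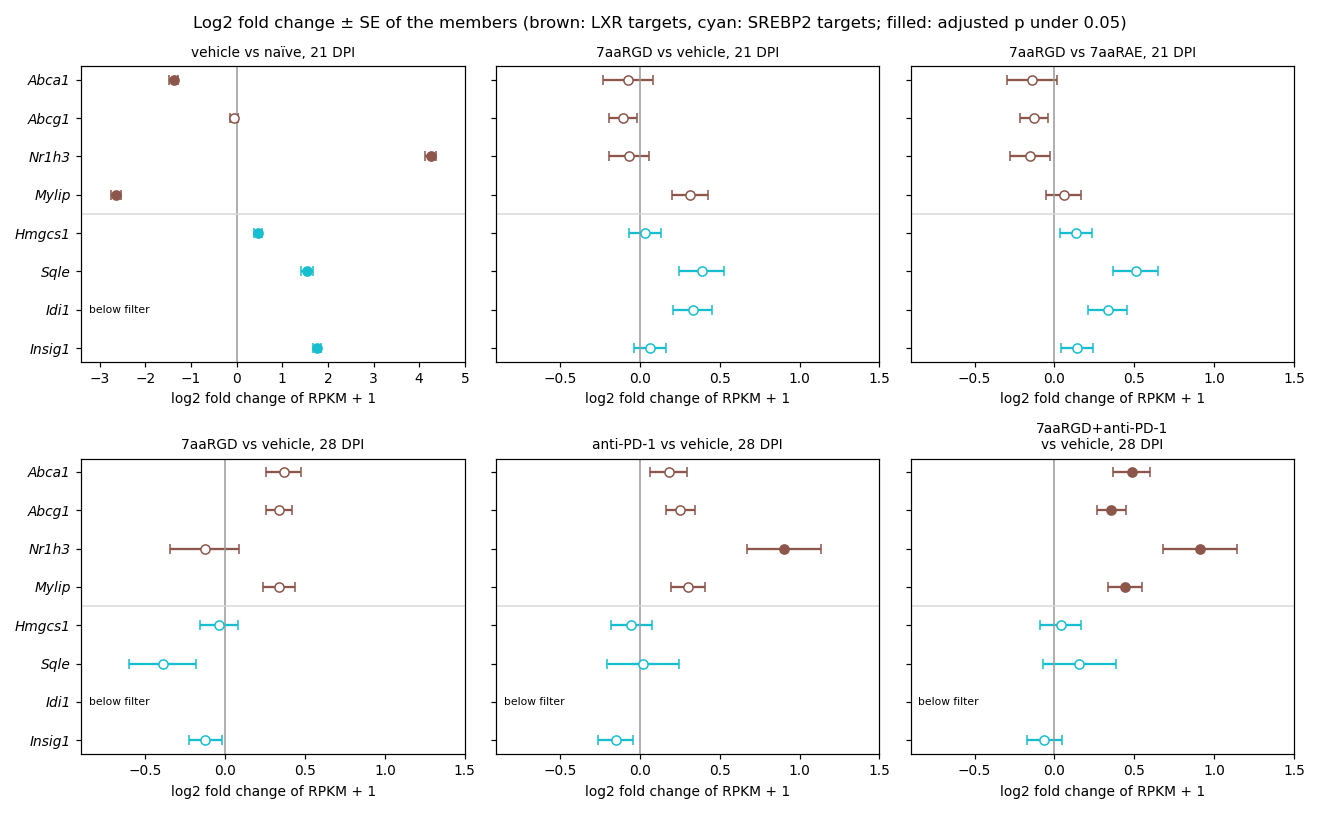
Log2 fold change of RPKM + 1 ± SE (horizontal axes) of the 8 members in 6 comparisons, with filled symbols for an adjusted p under 0.05 and open symbols for the rest. After the combination at 28 DPI all 4 LXR targets are filled and lie between 0.36 and 0.91, and the 3 SREBP2 targets tested lie between -0.06 and 0.16; the first panel has a wider axis.

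Markers moved in the same samples. Summed monocyte and macrophage markers were 2566 to 2989 RPKM after vehicle, 2091 to 2970 RPKM after 7aaRGD, 3756 to 5613 RPKM after anti-PD-1 and 5540 to 7362 RPKM after the combination. Microglia markers were 1533 to 2167, 1782 to 3142, 1715 to 2470 and 2281 to 2431 RPKM. T and NK cell markers were 3.20 to 7.37, 1.60 to 6.16, 2.54 to 31.0 and 15.0 to 41.5 RPKM in the same order. The CD11b+ sort genes themselves summed to 965.5 to 1238 RPKM after vehicle and 1262 to 1394 RPKM after the combination. Of these 4 genes 3 were called higher, and their median log2 fold change was 0.36, beside 0.36 to 0.48 for Abcg1, Mylip and Abca1. Both endothelial markers tested and 2 of 3 astrocyte markers were called higher as well (medians 0.98 and 0.68), and 2 of 6 cell division markers were called lower (median -0.36). Over all genes 17.5% were called higher and 25.8% lower. Nr1h3 was high in the groups where the monocyte and macrophage sum was high, and the part of these markers in the changes of the members was not tested.

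The other genes of the pathway were counted in the same way, beside 17.5% of 9732 genes called higher and 25.8% lower after the combination. Of the 10 further LXR targets tested, none rose and 2 fell after the combination, Apoe (log2 fold change -0.50, SE 0.18, adjusted p = 0.0346) and Scd2 (-0.43, SE 0.11, adjusted p = 0.0055), a fatty acid desaturase gene. The median over the 10 was -0.23, beside 0.46 over the 4 LXR members and -0.05 over all genes. Apoe held 13917 ± 1742 RPKM after vehicle and 9862 ± 1411 RPKM after the combination. Rxrb, a gene of the RXR partner, fell by 0.62 (SE 0.08), Nceh1 by 0.68 (SE 0.17), and Nr1h2 gave 0.07 (SE 0.08, adjusted p = 0.503).

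Of the 16 further synthesis enzymes, 2 rose and 3 fell after the combination, where 43.3% of all genes were called. Among them Msmo1 (0.42, SE 0.10) rose, and Pmvk (-1.33, SE 0.17), Mvk (-0.49, SE 0.08) and Dhcr7 (-0.30, SE 0.11) fell. Of the 7 genes of sterol uptake and SREBP control, 2 rose and 2 fell. Those that rose included Srebf2, from 14.4 ± 1.54 to 18.7 ± 1.58 RPKM (0.35, SE 0.10, adjusted p = 0.014), and Scap and Mbtps2 fell by 0.18 and 0.29. Against 7aaRGD alone, 4 enzymes rose (among them Msmo1 0.54, Fdft1 0.50 and Cyp51 0.49) and Pmvk fell by 0.89, with Srebf2 (0.55, SE 0.10) higher. In that comparison 36.6% of all genes were called. After anti-PD-1 alone none of the 16 rose and 2 fell (Pmvk -0.999, Mvk -0.48), where 23.1% of all genes were called. After 7aaRGD alone none of the 16 passed the test. There 1 of 16 had a positive log2 fold change, as did 5293 of 9732 genes, with a median of -0.17 beside 0.01 over all genes.

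**Figure D4:**
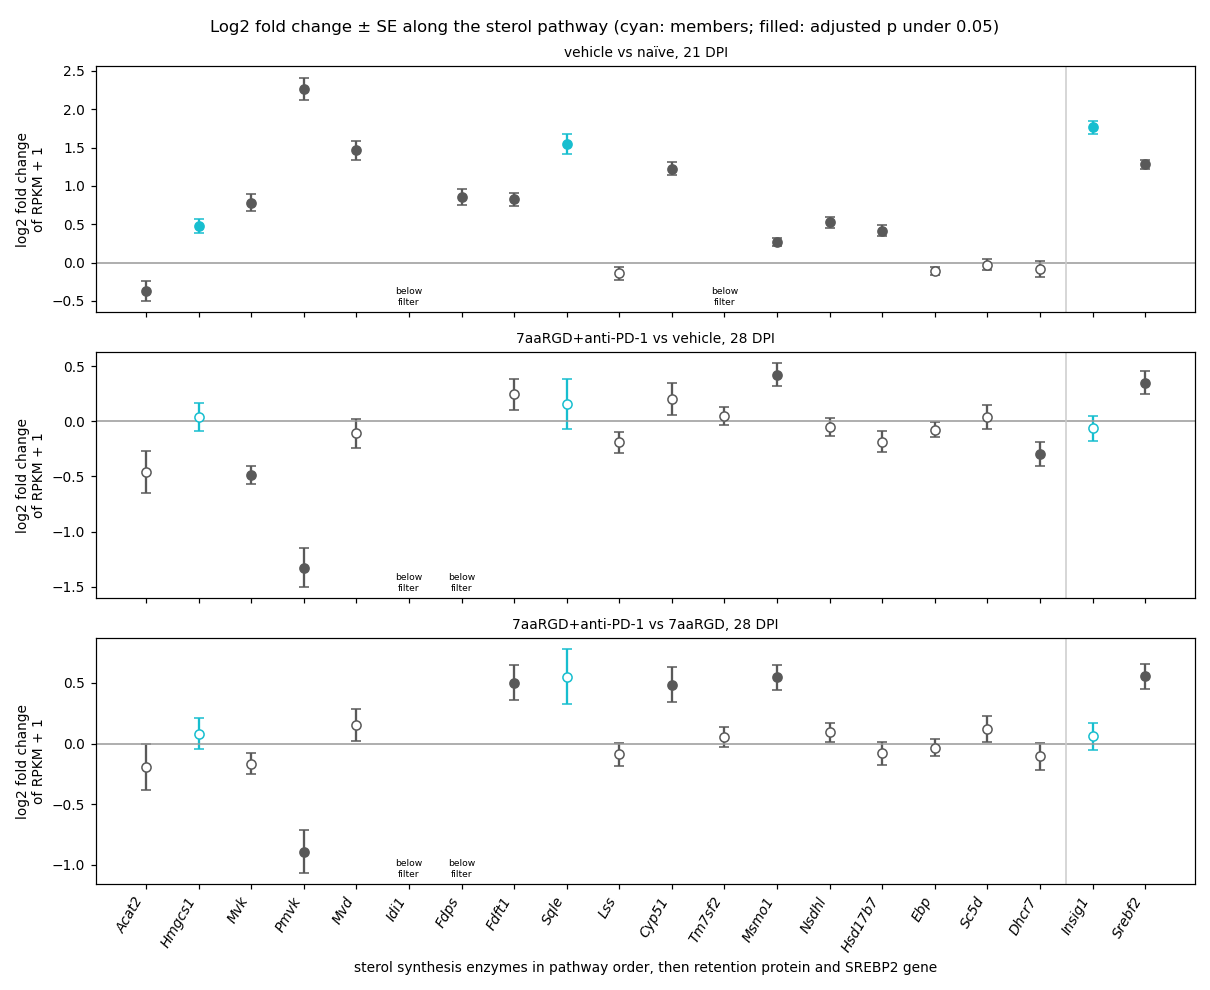
Log2 fold change of RPKM + 1 ± SE (vertical axes, which differ between panels) for sterol synthesis enzymes in pathway order, followed by Insig1 and Srebf2, in 3 comparisons, with filled symbols for an adjusted p under 0.05 and cyan for the members. In vehicle against naïve mice most enzymes are filled and above 0, while after the combination Pmvk is lowest at -1.33 and Msmo1 highest at 0.42.

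The fourth comparison used U87-MG tumors. None of the 7 members tested was called for 7aaRGD against vehicle (0% of 9659 genes), for 7aaRAE against vehicle (0.0104%) or between the peptides (0%), where limma gave 364, 746 and 326 genes at an unadjusted p under 0.05. Nr1h3 was 1.07, 1.48 and 1.53 RPKM after vehicle, 1.03, 1.76 and 1.5 RPKM after 7aaRGD and 0.839, 0.740 and 0.864 RPKM after 7aaRAE. The 7aaRAE samples lay below both other groups, as for 9.46% of genes against vehicle. Its log2 fold change was -0.38 against vehicle (SE 0.13, adjusted p = 0.535), and 7aaRGD exceeded 7aaRAE by 0.41 (SE 0.13, adjusted p = 1), as for 3.46% of genes without overlap. Summed monocyte and macrophage markers were 1241 to 2262 RPKM after 7aaRAE, 1327 to 3816 RPKM after 7aaRGD and 1442 to 2503 RPKM after vehicle, and their part in the difference was not tested.

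For the other members the peptide difference in U87-MG samples had 95% intervals between -0.48 and 0.52 on the log2 scale. Mylip was 88.6, 89.1 and 94.7 RPKM after vehicle, 102, 59.9 and 72.7 RPKM after 7aaRGD and 86.6, 71.3 and 68.4 RPKM after 7aaRAE. Its 7aaRAE samples did not overlap vehicle, and its log2 fold change was -0.27 (SE 0.17, adjusted p = 0.701). Idi1, under the filter, was 0.695 ± 0.109, 0.528 ± 0.134 and 0.508 ± 0.134 RPKM after vehicle, 7aaRGD and 7aaRAE. No gene of the 5 further lists was called in these 3 comparisons, and of the 16 further synthesis enzymes 0, 1 and 1 had an unadjusted limma p under 0.05 for 7aaRGD and 7aaRAE against vehicle and between the peptides.

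Levels per length were set side by side over all groups, across separately normalized tables and without a test. Abca1 was the highest LXR target by group mean in the 28 DPI and U87-MG groups, at 63.3 to 110 RPKM. In U87-MG mice its gap to Mylip was within their spread after vehicle (96.5 ± 8.93 against 90.8 ± 3.38 RPKM) and 7aaRGD (100 ± 17.2 against 78.1 ± 21.3 RPKM). In the tumor-bearing GL261 groups at 21 DPI Abca1 was close to Abcg1, at 41.3 ± 5.98 against 45.0 ± 4.04 RPKM after vehicle, a gap within their spread. Nr1h3 ran from 0.444 ± 0.121 RPKM in naïve mice, through 0.814 to 1.43 RPKM in U87-MG groups, to 12.6 to 27.9 RPKM at 28 DPI and 25.2 to 28.2 RPKM in the tumor-bearing groups at 21 DPI. At 28 DPI anti-PD-1 and the combination did not differ beyond their spread in Nr1h3, nor did vehicle and 7aaRGD, and the lower pair lay below the higher pair in the group means. Mylip ran in the opposite order, from 148 ± 9.55 RPKM in naïve mice, through 75.5 to 90.8 RPKM in U87-MG groups and 30.4 to 41.4 RPKM at 28 DPI, to 23.1 to 28.8 RPKM. Among SREBP2 targets Insig1 was the highest in tumor-bearing GL261 groups, at 10.4 to 17.8 RPKM, and Hmgcs1 in naïve mice and U87-MG groups, at 8.02 to 9.13 RPKM. Sqle and Idi1 stayed under 5 RPKM on average in every group.

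The contrast of both arms was summed as the mean log2(RPKM + 1) of the 4 SREBP2 targets minus that of the 4 LXR targets, a description with no test. At 21 DPI it was -3.37 ± 0.05 in naïve mice, -2.24 ± 0.34 after vehicle, -2.06 ± 0.23 after 7aaRGD and -2.43 ± 0.24 after 7aaRAE. The naïve samples, at -3.43 to -3.32, lay below all tumor-bearing samples of that table. The SREBP2 mean was 1.65 ± 0.01 in naïve mice and 2.82 ± 0.16 after vehicle. The LXR mean was 5.02 ± 0.05 and 5.07 ± 0.18, with Nr1h3 higher and Abca1 and Mylip lower after vehicle. At 28 DPI it was -2.80 ± 0.18 after vehicle, -3.15 ± 0.05 after 7aaRGD, -3.19 ± 0.24 after anti-PD-1 and -3.20 ± 0.18 after the combination. All 7aaRGD samples, at -3.22 to -3.09, lay below all vehicle samples, at -3.03 to -2.60, and in the anti-PD-1 and combination groups the highest samples (-2.92 and -3.01) overlapped them. After the combination the LXR mean was higher than after vehicle, at 5.54 ± 0.12 against 4.99 ± 0.11. The SREBP2 mean was 2.33 ± 0.15 against 2.19 ± 0.18, a gap within the spread and opposite in direction to the shift of the contrast. In U87-MG groups the contrast was -2.81 ± 0.05, -2.80 ± 0.12 and -2.80 ± 0.19.

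**Figure D5:**
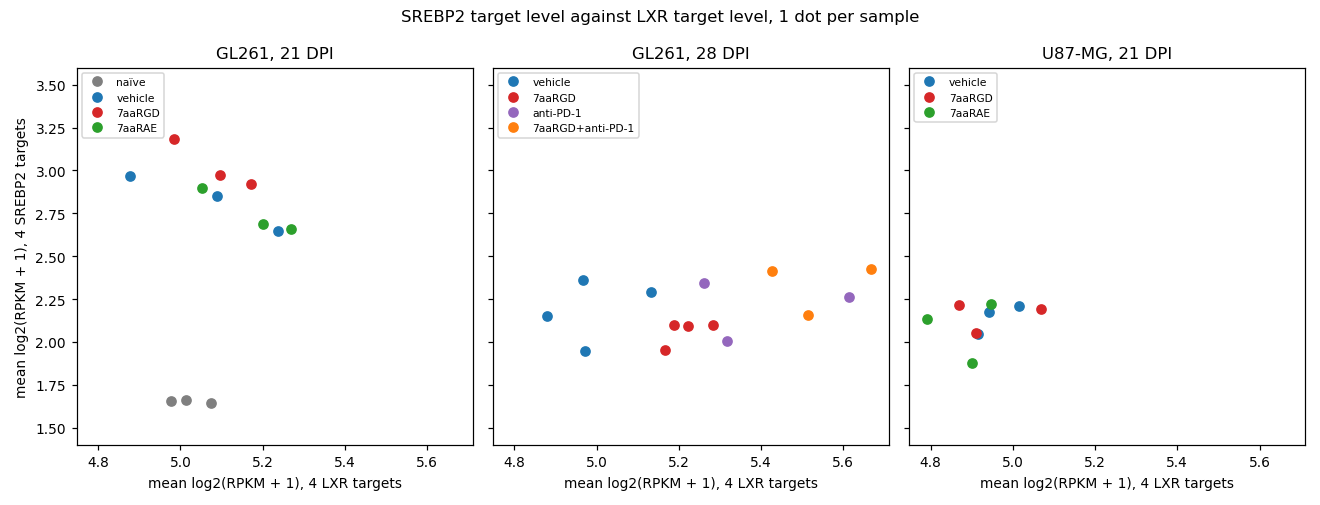
Mean log2(RPKM + 1) of the 4 SREBP2 targets (vertical axis) against that of the 4 LXR targets (horizontal axis), 1 dot per sample, in 3 separately normalized tables. At 21 DPI the naïve samples lie near an SREBP2 mean of 1.65, apart from the tumor-bearing samples, and at 28 DPI the combination samples lie farthest right on average, at an LXR mean of 5.54.

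Within the tumor-bearing samples of each table the members of 1 arm did not always vary as a unit. Pearson r over log2(RPKM + 1) of Sqle with Hmgcs1 was 0.78 over 9 samples at 21 DPI, 0.75 over 14 at 28 DPI and 0.21 over 9 in U87-MG mice, and that of Abca1 with Abcg1 was 0.45, 0.76 and 0.74. Nr1h3 with Abca1 gave 0.15, 0.24 and -0.10, and across the arms Nr1h3 with Hmgcs1 gave -0.93, 0.29 and 0.27. The samples of a table share its normalization and differ in treatment, and these values are descriptions.

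Other genes were ranked by their likeness to the mean of each set, as the lowest of the 3 values of r over 8900 genes measured in all tables. For the SREBP2 targets the first 8 included Stard4 (0.84), Srebf2 (0.78), Msmo1 (0.75), Cyp51 (0.66), Cyb5b (0.65), Armc6 (0.63) and Adnp2 (0.60). For the LXR targets the first 8 were S1pr2, Polr3b, Chml, Anxa5, Ptafr, Cep192, Stk38 and Sike1, with lowest r between 0.59 and 0.73.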

How the data were processed

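RNA-seq of CD11b+ cells was analysed in 35 of 40 samples (5 were not analysed here), grouped by the treatment labels. Per the labels and methods, the authors trimmed reads (Trimmomatic), aligned them to mm10 (STAR), counted them per gene on the reverse strand (HTSeq 0.11.1) and normalized them to RPKM, while NOISeq served their tests. The deposited score per gene is such an RPKM plus a constant of 2, and 3.13 to 8.78% of values lie under that constant, and whether a further correction step was applied is not given in the sources used here. The values are no counts, the depth is unknown, and no interval from depth is given.

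Here 2 was subtracted, and limma 3.58.1 in R 4.3.3 (moderated tests with a trend, two-sided) was run within each of the 3 tables on log2(RPKM + 1) for genes annotated as protein-coding whose mean reached 1 RPKM, with Benjamini-Hochberg adjustment and a threshold of 0.05, after a test on simulated data. This scale understates changes of low genes. Vehicle and naïve samples were fitted alone, and the tumor-bearing groups of a table together. P-values measure the spread between these samples only. Members and lists (5 pathway lists and 9 marker lists) were chosen with earlier results of these data known. All members were named, and of each list at most the 6 called genes with the largest change, plus Srebf2, Nr1h2, Apoe and some genes that are not reported here. Gene symbols matched GENCODE M21 for 98.7% of rows. Alternatives covered pseudocount, filter, scaling, samples, replicate block, residual degrees of freedom and gene type. Replicate numbers did not pair the samples, with r over 0.1 in 1 of 9 pairs at 21 DPI and 3 of 19 at 28 DPI.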

Additional observations from a re-analysis of the deposited data

Results flagged for a closer look

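Mylip stood apart in the 28 DPI 7aaRGD group, where replicate 3 had 32.8 RPKM and the other 3 samples had 40.1 to 40.7 RPKM. The gap to the nearest sample was 0.92 of the range of the group, above Dixon's critical value of 0.829 for 4 samples. It was the single such case among 16 groups of 4 samples tested for the members. Chance alone flags about 1 in 20 groups at this value, so 1 case among 16 groups is not unusual.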

How the results depend on the processing

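Of 647 values of the 39 member results under alternatives, 626 kept their direction and their side of the threshold. The deposited values hold no depth, which limits the low genes Sqle and Idi1. On the log2(RPKM + 1) scale, replicate differences of the GL261 tables lack 1 dimension. The main fits make no allowance for this, unlike the alternative with 1 residual degree of freedom less. With 1 library left out the counts of genes called ran from 0 to 120 for 7aaRGD against vehicle at 21 DPI (14 with all samples; 120 without vehicle replicate 3), 0 to 2 for 7aaRAE (0), 0 to 1 between the peptides (0), 0 to 1 for 7aaRGD at 28 DPI (63), 1357 to 2253 for anti-PD-1 (2245; 1357 without anti-PD-1 replicate 2), 0 to 26 for combination against anti-PD-1 (4) and 0 to 3 for the interaction (0), and in U87-MG mice 0 to 2 for 7aaRGD and 0 to 3 between the peptides. Members called ran from 0 to 2 for anti-PD-1 (1) and 1 to 2 for combination against 7aaRGD (1).

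For 7aaRGD at 21 DPI, 0 genes were called with a pseudocount of 0.1, a filter at 5 RPKM, TMM or median-of-ratios factors, 1 residual degree of freedom less or all named genes, 41 with no filter, 1 with only the groups compared and 74 with naïve samples added. Between the peptides, 7 were called with no filter, 4 with only the groups compared, 3 with naïve samples added and 1 over all named genes. For 7aaRGD at 28 DPI, 39 were called with no filter, 17 with TMM, 18 with median-of-ratios factors and 0 with only the groups compared or 1 degree of freedom less. For combination against anti-PD-1, 14 were called with a pseudocount of 5, 20 with no filter, 13 with a filter at 5 RPKM, 0 with only the groups compared, 1 with a degree of freedom less and 2 over all named genes. For 7aaRAE in U87-MG mice, 0 were called with a filter at 5 RPKM and 32 with only the groups compared, and for vehicle against naïve 5286 with that filter, where fewer genes were tested. Members called were 2 for anti-PD-1 with TMM or median-of-ratios factors, and 2 for combination against 7aaRGD with no filter, median-of-ratios factors or only the groups compared. Elsewhere the cause was not tested.

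With a replicate block, 0 genes were called for 7aaRGD at 21 DPI and at 28 DPI and 0 for combination against anti-PD-1, 3767 for combination against vehicle and 7951 for vehicle against naïve, and the number of members called in each comparison was as without it (6 for vehicle against naïve, 4 for combination against vehicle). For the U87-MG table no paired analysis was possible, because its columns carry no replicate number.

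Signs turned in 13 values, none of them past the threshold. Abcg1 in vehicle against naïve gave 0.11 with TMM and 0.12 with median-of-ratios factors, and -0.12 to 0.015 with 1 library left out (turned without naïve replicate 1 and vehicle replicate 2, 0.0037). The same range was -0.15 to 0.042 for Hmgcs1 after 7aaRGD at 28 DPI (turned without 7aaRGD replicate 3, 0.012, and vehicle replicate 4), -0.18 to 0.23 for Sqle after anti-PD-1 (turned without anti-PD-1 replicate 2 and vehicle replicates 1, -0.14, and 2, -0.0038), -0.16 to 0.028 for Hmgcs1 after anti-PD-1 (vehicle replicate 4), and after the combination -0.068 to 0.14 for Hmgcs1 (combination replicate 2, -0.042, and vehicle replicate 1) and -0.14 to 0.0016 for Insig1 (combination replicate 2). With a pseudocount of 0.1 the contrast of set means ran from -3.82 in naïve mice to -2.24 after 7aaRGD at 21 DPI.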
